A study of Sus scrofa with 30 samples.

Results

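The red-cell miRNAs ssc-miR-451, ssc-miR-144 and ssc-miR-486 were followed in the plasma of irradiated minipigs. They were taken as the rows of the count table whose number directly after ssc-miR- is that of 1 of the 3, which gave 3 of 411 rows, and all 3 were kept by the filter on low counts. The study sequenced small RNA from the plasma of 3 male Göttingen minipigs, a small pig breed used as a large-animal model of radiation injury, each bled repeatedly around a single 2.2 Gy total body irradiation (TBI) with gamma rays from cobalt. The pre-TBI draws were 7 days (C7) and 1 day (C1) before irradiation, and the later draws were on the day of TBI (0d, 6 h after it) and 1 to 20 days after it. The study sorted the later draws into phases from a principal component analysis of these same libraries: Early, with draws at 0d, 1d, 3d and 7d, then Mid, with draws at 10d and 14d, Late, at 17d, and Late Regression (LR), at 20d. All animals received the same dose and, as controls of a drug study, subcutaneous dextrose after TBI. By the study's methods, blood was drawn under isoflurane, and antibiotics were given when neutrophil counts were low. Each animal's pre-TBI draws are the only unirradiated samples. Time, repeated bleeding under anaesthesia, dextrose, any antibiotics and irradiation therefore cannot be told apart.

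Of 30 libraries, 24 held from 24341 to 550316 counts and were used. The other 6 were all from minipig 3, from 3d to 20d, held at most 17 counts each and none of the 3 miRNAs, and were left out. The Mid, Late and LR phases therefore rest on minipigs 1 and 2. Depth differed by phase. The 4 Mid libraries held 35762 to 103083 counts and the 2 Late libraries 29159 and 63441, against 172339 to 524084 in the 10 Early libraries, 401408 and 550316 at LR, and 24341 to 423325 in the 6 pre-TBI libraries.

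miR-451 and miR-144 are made from a shared primary transcript that GATA1 switches on as red cells mature. miR-451 is unusual in that its hairpin is too short for Dicer and is cut by the Argonaute protein AGO2 instead. miR-486 lies within ANK1, the gene of the red-cell membrane protein ankyrin-1, and is abundant in red cells and in muscle. Red cells carry these miRNAs at high levels, so their plasma level is known to be sensitive to red-cell lysis during blood collection. In the RefSeq annotation of the pig assembly Sscrofa11.1, MIR451 and MIR144 were neighbours with no listed gene between them, inside the span of ERAL1, and MIR486-1 lay inside the span of ANK1.

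The seed of a miRNA, its bases 2 to 8, sets which transcripts it pairs with. The seeds below are shown to see whether miRNAs that share a plasma pattern also share a seed. They are copied from the annotation the study used for its target network, where they stand under the human names miR-451a, miR-486-5p, miR-16-5p, miR-92a-3p and miR-142-5p, and capitals mark the whole seed.
ssc-miR-451: AACCGUU
ssc-miR-486: CCUGUAC
ssc-miR-16: AGCAGCA
ssc-miR-92a: AUUGCAC
ssc-miR-142-5p: AUAAAGU
No 2 of these 5 seeds were identical, and no seed of ssc-miR-144 was available to compare. Those of ssc-miR-451 and ssc-miR-486 matched at 0 of 7 positions, and the most alike pair, ssc-miR-486 and ssc-miR-92a, matched at 4.

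ssc-miR-486 was among the most abundant plasma miRNAs and its partners were far scarcer. By mean share of a library's counts it stood 5th of 411 rows, at 2.29% on average and between 0.535% and 7.96% in single libraries. ssc-miR-451 stood 75th with a mean of 0.25%, and ssc-miR-144 stood 319th with a mean of 0.0248%. These are shares of counted miRNA reads and were not divided by length, since each read covers about 1 whole mature miRNA. All 3 varied more between libraries than most rows: the SD of log2 CPM (counts scaled to a fixed library total) over the 24 libraries was 1.53 for ssc-miR-451, 1.15 for ssc-miR-144 and 0.95 for ssc-miR-486, against a median of 0.68 over all rows. Over the 6 pre-TBI libraries alone the SDs were 1.60, 1.35 and 1.09, against a median of 0.55, so the spread was as wide in unirradiated plasma.

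The level of ssc-miR-451, which restrains the signalling protein YWHAZ in maturing red cells and protects them from oxidative stress, followed a different course in each animal. Levels here are CPM scaled by the trimmed mean of M values (TMM), and the draws of a phase are given in order of time. In minipig 1, ssc-miR-451 was at 491 CPM at C7 and 793 at C1, then at 1145, 869, 3214 and 939 over the 4 Early draws, 475 and 953 over the 2 Mid draws, 807 at Late and 2417 at LR. In minipig 2, it was at 9613 CPM at C7 and 1885 at C1, then at 3645, 7012, 5782 and 768 over the 4 Early draws, 490.0 and 378 over the 2 Mid draws, 188 at Late and 843 at LR. Minipig 2 was thus high up to 3d and low from 7d on, while minipig 1 was low at both pre-TBI draws and highest at 3d and 20d. In minipig 3, ssc-miR-451 was at 4478 CPM at C7, 1129 at C1, 8851 at 0d and 769.8 at 1d. The level moved in minipig 3 between consecutive draws by more than it did over the whole course in minipig 1, whose lowest and highest libraries lay 2.74 apart on the log2 scale, against 3.51 in minipig 3 and 5.62 in minipig 2.

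ssc-miR-144, the other product of the shared transcript and known to target the antioxidant regulator NRF2 in red cells, followed ssc-miR-451 at a lower level. In minipig 1, it was at 49.1 CPM at C7 and 100.2 at C1, then at 107, 76.5, 213 and 102 over the 4 Early draws, 166 and 118 over the 2 Mid draws, 142.5 at Late and 248 at LR. In minipig 2, it was at 750.4 CPM at C7 and 304 at C1, then at 388, 612, 585 and 69.9 over the 4 Early draws, 93.3 and 70.3 over the 2 Mid draws, 78.5 at Late and 116 at LR. As for ssc-miR-451, the level in minipig 2 stepped down between 3d and 7d, and the values from 7d on lay close together. In minipig 3, ssc-miR-144 was at 367 CPM at C7, 148 at C1, 818 at 0d and 79.0 at 1d. Few reads stood behind the low values: the C7 library of minipig 1 held 1 read of ssc-miR-144, the Mid libraries 4 to 11 and the Late libraries 3 and 5.

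ssc-miR-486, which acts in erythroid and muscle cells, moved over a narrower range. In minipig 1, it was at 22111 CPM at C7 and 15369 at C1, then at 11265, 10673, 28711 and 13124 over the 4 Early draws, 12167 and 15749 over the 2 Mid draws, 7409 at Late and 17398 at LR. In minipig 2, it was at 77925 CPM at C7 and 19571 at C1, then at 32520.3, 49363, 50969 and 13632 over the 4 Early draws, 23847 and 10867 over the 2 Mid draws, 9926 at Late and 9048 at LR. Both animals had a peak at 3d among their post-TBI draws. In minipig 3, ssc-miR-486 was at 20832 CPM at C7, 7700.1 at C1, 46749.7 at 0d and 8386 at 1d, so the peak at 0d was shared by all 3 miRNAs in that animal.

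**Figure D1:**
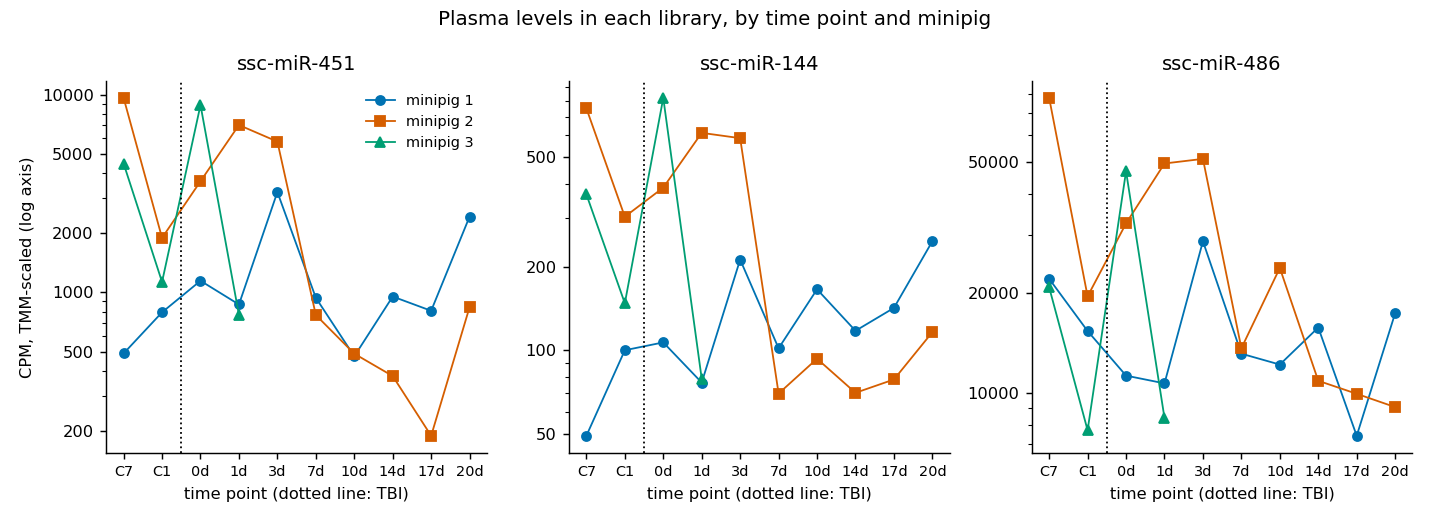
Level of each miRNA in each library (CPM, log axis) at each time point, with 1 line per minipig and a dotted line at TBI. Minipig 2 drops in all 3 panels between 3d and 7d, minipig 1 has its post-TBI high for ssc-miR-451 and ssc-miR-486 at 3d, and minipig 3 has no usable library after 1d.

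The pre-TBI draws already differed within an animal. From C7 to C1 all 3 miRNAs were lower in minipigs 2 and 3, while in minipig 1 ssc-miR-451 and ssc-miR-144 were higher and ssc-miR-486 was lower. In edgeR's quasi-likelihood test the log2 difference, C1 minus C7, was -1.95 for ssc-miR-451 (SE 0.96), -1.50 for ssc-miR-486 (SE 0.72) and -1.21 for ssc-miR-144 (SE 0.83), each with a Benjamini-Hochberg adjusted p of 0.997 over 411 rows. None of the 3 was called lower, in a comparison where 0.487% of all rows were lower at an unadjusted p under 0.05. Values with C7 or C1 alone as the baseline are therefore given below where they differ most.

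Against the pooled pre-TBI libraries, ssc-miR-451 had the lowest fitted change of all 411 rows in the Mid phase and the second lowest in the Late phase, but no member passed the adjusted threshold of 0.05 in any phase. The 6 pre-TBI libraries held ssc-miR-451 at 491 to 9613 CPM (median 1507), the 10 Early libraries at 768 to 8851 (median 2179), the 4 Mid libraries at 378 to 953 (median 483), the Late libraries at 188 and 807, and the LR libraries at 843 and 2417. All phases overlapped the pre-TBI range. In edgeR's test the log2 change for Early was 0.10 (SE 0.63, adjusted p = 0.955), against -2.42 for Mid (SE 0.89, unadjusted p = 0.0121, adjusted p = 0.808), -2.74 for Late (SE 1.26, unadjusted p = 0.0410, adjusted p = 0.192) and -0.92 for LR (SE 1.06, adjusted p = 0.718). With the minipig as a block, the change was -1.92 at Mid (unadjusted p = 0.0495) and -2.21 at Late (unadjusted p = 0.103), so the Late value no longer had an unadjusted p under 0.05. With C1 alone as the baseline it was -1.14 at Mid (edgeR, adjusted p = 0.870) and -1.46 at Late (adjusted p = 0.441), against -3.09 and -3.41 with C7 alone.

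Of the 3 miRNAs, 1 was lower at an unadjusted p under 0.05 at Mid, where 3.16% of all rows were, and 1 at Late, where 7.06% were. None was lower by that rule at Early, where 13.6% of rows were, or at LR, where 1.95% were. At an adjusted p under 0.05, 4.38% of rows passed at Late in either direction, and 0% passed at Early, Mid and LR.

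Within animals, the mean Mid and Late levels of ssc-miR-451 lay below the pre-TBI mean in minipig 2 and not in minipig 1. By single draws, the 10d library of minipig 1 held ssc-miR-451 at 475 CPM, below both of its pre-TBI draws (491 and 793). The difference of ssc-miR-451 from the animal's own pre-TBI mean, on the log2 CPM scale, was -0.38 over the Early draws of minipig 2, -3.28 over its Mid draws, -4.44 for Late and -2.33 for LR. In minipig 1 it was 1.07, 0.11, 0.37 and 1.94, so that no phase mean lay under the pre-TBI mean. That pre-TBI mean rests on 10 and 95 reads. The Mid libraries of the animals held 20 to 89 reads of ssc-miR-451, and the Late libraries 17 and 12. Minipig 3, with draws to 1d, contributed an Early difference of 0.22 only. Without minipig 2 the fitted change was -1.31 at Mid (edgeR, adjusted p = 0.731) and -1.48 at Late, and without minipig 1 it was -3.35 and -4.53. These fits had no term for the animal and kept minipig 3 in the pre-TBI group only. Without minipig 2 they set minipig 1 against the pre-TBI draws of minipigs 1 and 3. Those negative values thus include the difference between animals, beside changes of 0.11 and 0.37 within minipig 1. Without the 17d library of minipig 2 the Late change was -1.94 (edgeR, adjusted p = 0.383). Fewer red cells and less of each miRNA released per cell cannot be told apart in plasma.

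**Figure D2:**
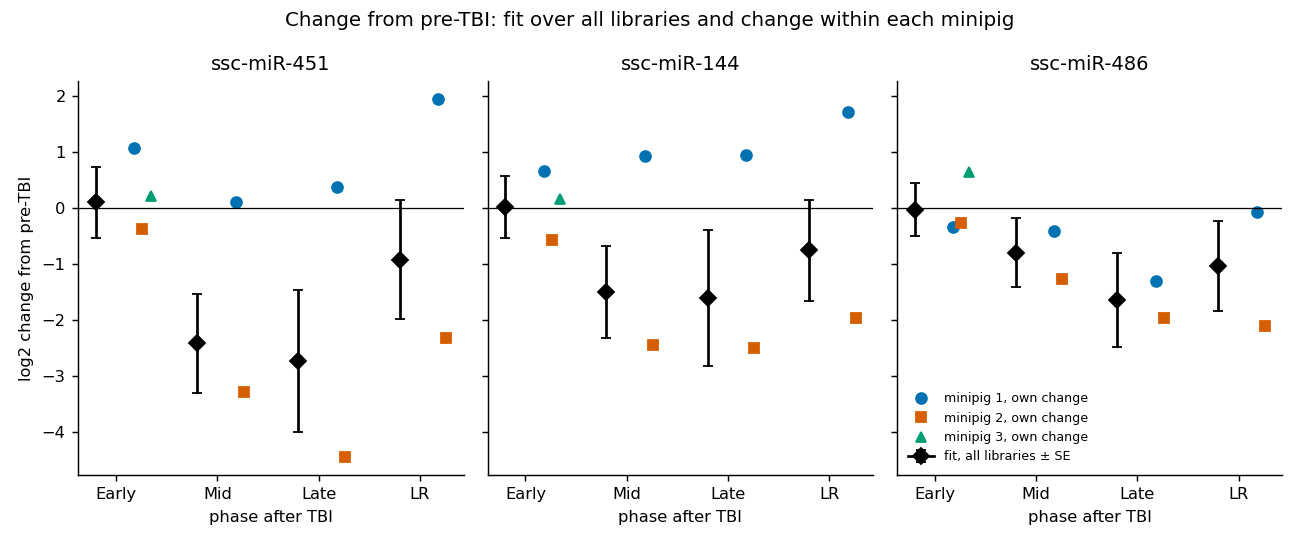
Log2 change from pre-TBI by phase. Black diamonds with bars are the edgeR fit over all 24 libraries ± SE, and coloured points are the mean log2 CPM of 1 minipig in that phase minus its own pre-TBI mean. For ssc-miR-451 and ssc-miR-144, minipig 1 lies above 0 in every phase and minipig 2 below 0 in every phase, and for ssc-miR-486 these 2 minipigs lie below 0 in every phase.

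ssc-miR-144 had the same direction with smaller sizes. The pre-TBI libraries held it at 49.1 to 750.4 CPM (median 226), the Early libraries at 69.9 to 818 (median 160.0), the Mid libraries at 70.3 to 166 (median 106), the Late libraries at 78.5 and 142.5, and the LR libraries at 116 and 248. The Mid, Late and LR libraries lay inside the pre-TBI range, and 1 Early library, 0d of minipig 3, lay above it. The edgeR change was 0.0075 for Early, -1.50 for Mid (SE 0.82, adjusted p = 0.818), -1.61 for Late (SE 1.22, adjusted p = 0.416) and -0.76 for LR (SE 0.89, adjusted p = 0.718). In minipig 2 the difference from its own pre-TBI mean was -0.58 for Early, -2.45 for Mid, -2.50 for Late and -1.97 for LR. In minipig 1 it was 0.66, 0.92, 0.94 and 1.71, and its pre-TBI mean rests on 1 and 12 reads.

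ssc-miR-486 had its lowest phase mean at Late, below the pre-TBI mean of both animals with usable libraries, and the pooled difference did not pass the test. The pre-TBI libraries held it at 7700.1 to 77925 CPM (median 20201), the Early libraries at 8386 to 50969 (median 21171), the Mid libraries at 10867 to 23847 (median 13958), the Late libraries at 7409 and 9926, and the LR libraries at 9048 and 17398. The Late library of minipig 1 was below every pre-TBI library, and the other was above the lowest. The edgeR change was -0.04 for Early, -0.80 for Mid (SE 0.61, adjusted p = 0.909), -1.65 for Late (SE 0.84, unadjusted p = 0.0604, adjusted p = 0.228) and -1.04 for LR (SE 0.80, adjusted p = 0.603). The differences from the animals' own pre-TBI means at Late were -1.31 in minipig 1 and -1.98 in minipig 2. With C1 alone as the baseline the Late change was -0.71 and the Mid change turned positive, at 0.14. With C7 alone they were -2.22 (edgeR, unadjusted p = 0.0168, adjusted p = 0.262) and -1.36 (unadjusted p = 0.0486, adjusted p = 0.856).

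Ordered by fitted level, ssc-miR-451 stood highest at Early, then pre-TBI, LR, Mid and Late. Between phases after TBI, ssc-miR-451 had a lower level at Mid than at Early (log2 difference -2.52, SE 0.86, edgeR unadjusted p = 0.0075, adjusted p = 0.0961) and at Late than at Early (-2.83, SE 1.25, unadjusted p = 0.0326, adjusted p = 0.0783). With the minipig as a block these were -2.13 (edgeR, unadjusted p = 0.0215, adjusted p = 0.158) and -2.42 (unadjusted p = 0.0674, adjusted p = 0.142), so that Late against Early no longer had an unadjusted p under 0.05. By the unadjusted rule 1 of the 3 miRNAs was lower in each, beside 8.52% of all rows for Mid against Early and 17.0% for Late against Early. At the adjusted threshold none of the 3 was called, beside 0% and 31.9% of all rows in either direction. Neighbours in the order did not differ beyond their spread: Late against Mid gave -0.32 (SE 1.20) and LR against Mid 1.50 (SE 1.04, unadjusted p = 0.165). For ssc-miR-144 Mid against Early was -1.51 (SE 0.78, adjusted p = 0.230), and for ssc-miR-486 it was -0.76 (SE 0.57, adjusted p = 0.400).

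By single draws, ssc-miR-451 lay above the pre-TBI fit on the day of TBI (0d, log2 change 0.56, SE 0.85) and at 3d (0.54, SE 0.97), and close to it at 1d (-0.10). It lay below the fit at 7d (-1.86, SE 1.13), at both Mid draws (-2.68 at 10d with SE 1.23, and -2.22 at 14d) and at 17d (-2.74, SE 1.26). Its unadjusted p in edgeR's test was 0.0420 at 10d (adjusted p = 0.633) and 0.0427 at 17d (adjusted p = 0.200). It was called at the adjusted threshold only by DESeq2's Wald test, at 17d (-2.82, adjusted p = 0.0466). ssc-miR-144 had changes of 0.53, -0.25, 0.38 and -1.83 over the 4 Early draws, the last with an SE of 0.97 and an adjusted p of 0.578, and of -1.24 and -1.72 over the 2 Mid draws. ssc-miR-486 had changes of 0.15, -0.26, 0.55 and -1.03 over the 4 Early draws and of -0.60 and -1.03 over the 2 Mid draws. In minipig 2 the low values of ssc-miR-451 thus began at 7d, which the study's phases place in Early, while in minipig 1 the 7d level of 939 CPM was above both pre-TBI draws. Counted by the unadjusted rule, 1 of the 3 miRNAs was lower at 10d, where 4.38% of all rows were, and 1 at 17d, where 8.52% were. None was lower at the 4 Early draws, where 2.19%, 8.76%, 4.62% and 4.38% of rows were, at 14d, where 4.87% were, or at 20d, where 2.92% were. With the minipig as a block, ssc-miR-451 lost both calls (edgeR, unadjusted p = 0.0714 at 10d and 0.0949 at 17d), and ssc-miR-486 had an unadjusted p of 0.0491 at 17d (-1.68, adjusted p = 0.240).

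Depth moved with these levels. Over the 24 libraries, the Pearson correlation of log2 CPM with the log2 of the library's total was 0.62 for ssc-miR-451, 0.51 for ssc-miR-144 and 0.21 for ssc-miR-486, as a description of libraries that share 3 animals. After all libraries were thinned at random to 24341 counts, the fitted change of ssc-miR-451 was -2.59 at Mid (edgeR, unadjusted p = 0.0077, adjusted p = 0.977) and -3.16 at Late (unadjusted p = 0.0201, adjusted p = 0.224). That of ssc-miR-144 was -1.11 at Mid. The most abundant row, ssc-miR-4332, moved with 1 library: it was at 11493 CPM in the Late library of minipig 1, against 80437 to 239533 in the others. With that row left out of the library sizes, the Late change was -3.34 for ssc-miR-451 and -1.98 for ssc-miR-486, against -3.21 and -1.89 by library size with the row left in.

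The 3 miRNAs varied together, ssc-miR-451 and ssc-miR-144 most closely. Over the 24 libraries the Pearson correlation of log2 CPM between ssc-miR-451 and ssc-miR-144 was 0.92 (Spearman 0.86), and 0.89 without the 2 libraries farthest from the median of ssc-miR-451. It was 0.68 over the 10 libraries of minipig 1, 0.96 over the 10 of minipig 2, 0.97 over the 6 pre-TBI libraries and 0.99 over the 10 Early libraries. These are descriptions, since libraries of 1 animal share that animal and its depth. ssc-miR-486 followed ssc-miR-451 less closely, at 0.79 (Spearman 0.64), with 0.44 in minipig 1 and 0.90 in minipig 2. Its correlation with ssc-miR-144 was 0.78 over all libraries, 0.10 in minipig 1 and 0.90 in minipig 2.

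**Figure D3:**
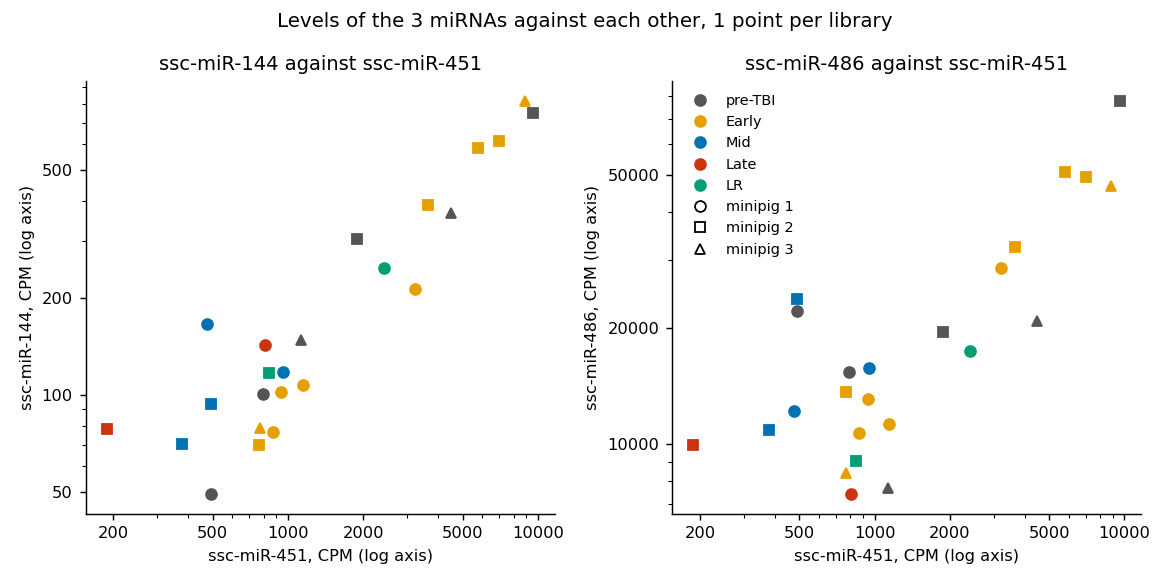
CPM of ssc-miR-144 (left) and ssc-miR-486 (right) against ssc-miR-451, on log axes, with 1 point per library, colour for phase and shape for minipig. Where ssc-miR-451 is above 1145 CPM, ssc-miR-144 lies between 213 and 818 CPM and ssc-miR-486 between 17398 and 77925. In the other libraries they lie between 49.1 and 166 and between 7409 and 23847, so that only the ranges of ssc-miR-486 overlap. The cut at 1145 CPM was set on these same values, so the split describes them and tests nothing.

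Ranked by Pearson correlation over the 24 libraries, the 5 rows most like each of the 3 miRNAs came from the same 6 rows: the 3 themselves, ssc-miR-16, ssc-miR-142-5p and ssc-miR-92a. For ssc-miR-451 these were ssc-miR-144, ssc-miR-16 (0.90), ssc-miR-142-5p (0.85), ssc-miR-486 and ssc-miR-92a (0.69). The closest row to ssc-miR-486 was ssc-miR-92a (0.85). miR-16 and miR-92a, a member of the miR-17-92 cluster, are abundant in red cells, while miR-142 is known from white cells and platelets. ssc-miR-16 had a log2 change of -2.23 at Mid (SE 0.80, edgeR unadjusted p = 0.0104, adjusted p = 0.808) and -1.86 at Late (SE 1.05, adjusted p = 0.291). ssc-miR-142-5p had -1.73 at Mid (SE 0.55, unadjusted p = 0.0042, adjusted p = 0.808). ssc-miR-92a had -0.48 at Mid and -0.44 at Late, with adjusted p of 0.885 and 0.546.

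Of the other miRNAs known to be abundant in red cells, ssc-miR-16 alone was lower at Mid by the unadjusted rule, which 3.16% of all rows met. The list held 6 rows, ssc-miR-16, ssc-miR-92a, ssc-miR-15b, ssc-miR-20a, ssc-miR-185 and ssc-miR-363. It was also to hold miR-25 and miR-93, which gave no row. At Mid the list's median log2 change was -0.05, against 0.05 over all 411 rows. At Late none was lower, beside 7.06% of all rows, and 1 was higher, beside 15.6% of all rows: ssc-miR-15b (1.19, SE 0.45, unadjusted p = 0.0155, adjusted p = 0.134), named after its value was seen, and the median was 0.47, against 0.08 over all rows. At Early and LR none was lower by that rule, and the medians were -0.02 and -0.52. Summed, the 6 rows made up 0.716% to 2.92% of counts in the pre-TBI libraries and 0.705% to 1.04% in the Mid libraries, and none of the 6 passed the adjusted threshold in any phase.

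Markers of other blood cells and tissues were present in the same plasma. The platelet rows (ssc-miR-191, ssc-miR-126-3p and ssc-miR-126-5p) summed to 0.883% to 2.11% of counts pre-TBI, 0.477% to 1.39% at Mid and 0.151% and 0.586% at Late, and ssc-miR-191, the most abundant of them, had a log2 change of -1.11 at Mid and -2.11 at Late (SE 0.78, edgeR unadjusted p = 0.0122, adjusted p = 0.118). Of the other platelet rows, ssc-miR-126-3p had 0.52 at Mid and -0.12 at Late, and ssc-miR-126-5p had -0.31 at Mid, -1.05 at Late and 1.75 at LR (SE 0.51, edgeR unadjusted p = 0.0023, adjusted p = 0.337). Of the 3 platelet rows 1 was lower at Late by the unadjusted rule, beside 7.06% of all rows, and none at Mid, beside 3.16%. The miR-142 rows (ssc-miR-142-3p and ssc-miR-142-5p), listed for myeloid cells but known from blood cells of many kinds, summed to 0.035% to 0.149% pre-TBI, 0.022% to 0.047% at Mid and 0.055% and 0.033% at Late, and 1 of the 2 was lower at Mid, beside the 3.16% of all rows. The lymphocyte rows (ssc-miR-150 and ssc-miR-342) ranged from 0.119% to 0.187% pre-TBI and 0.094% to 0.161% at Mid, and the muscle rows (ssc-miR-1, ssc-miR-133a-3p, ssc-miR-133a-5p and ssc-miR-206) from 0.074% to 0.171% and 0.093% to 0.176%. The most abundant lymphocyte row, ssc-miR-342, had a log2 change of -0.56 at Mid and -0.66 at Late. The most abundant muscle row, ssc-miR-133a-5p, had 0.21 at Mid and -0.0026 at Late. The liver miRNA ssc-miR-122 ranged from 0.064% to 0.147% pre-TBI and 0.039% to 0.081% at Mid. No row of these lists passed the adjusted threshold in any phase. The myeloid list was also to hold miR-223, which gave no row. In minipig 2 the platelet and miR-142 sums and the ssc-miR-122 share were below both pre-TBI draws at Mid and Late, as was ssc-miR-451. The lymphocyte and muscle sums of that animal were not below both at every one of these draws. In minipig 1 the platelet sum was below both pre-TBI draws at 10d and Late and above them at 14d. The miR-142 sum of minipig 1 was below them at 10d, between them at 14d and above them at Late. Its ssc-miR-122 share was between them at 10d, below them at 14d and above them at Late. The part of these rows in the level of ssc-miR-451 was not tested.

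Ratios within a library do not depend on how libraries are scaled. The log2 ratio of ssc-miR-144 to ssc-miR-451 counts, with 0.5 added to each count, averaged -3.09 over the 6 pre-TBI libraries and -3.41 over the 10 Early libraries. It was -1.45, -2.96, -2.26 and -2.36 in the 4 Mid libraries and -2.32 and -1.18 in the 2 Late libraries, so that both Late libraries were above every pre-TBI library, whose values ran from -3.68 to -2.62. The LR libraries, at -3.28 and -2.85, were back inside that range. The difference from pre-TBI was 0.84 at Mid (two-sided exact permutation test with time labels moved within each minipig, p = 0.167), 1.34 at Late (p = 0.111, the smallest the 9 arrangements allow) and -0.31 at Early (p = 0.0852), and after Benjamini-Hochberg adjustment over 3 ratios and 4 phases each was 0.5. At 36 arrangements the Mid comparison cannot give an exact p below 0.0556. In the Mid and Late libraries few reads set the ratio. At 17d in minipig 2 it rests on 5 and 12 reads, with an exact 95% interval, without the offset, of -3.12 to 0.35 on the log2 scale. At 10d in minipig 2 it rests on 4 and 21 reads, with an interval of -4.39 to -0.82.

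The level of ssc-miR-486 relative to ssc-miR-451 was higher at Mid than at Early in minipigs 1 and 2, which differed against pre-TBI and at Late. In minipig 2 the log2 ratio was 3.02 at C7 and 3.37 at C1, then 3.16, 2.82, 3.14 and 4.14 over the Early draws. It was 5.57 and 4.83 over the Mid draws, 5.66 at Late and 3.42 at LR. In minipig 1 it was 5.42 at C7, on 10 reads of ssc-miR-451, and 4.27 at C1, then 3.30, 3.62, 3.16 and 3.80 over the Early draws. It was 4.64 and 4.04 over the Mid draws, 3.16 at Late and 2.85 at LR. Both Mid values lay above every Early value in each animal. The Mid and Late values lay above both pre-TBI values in minipig 2, and none lay above the C7 value in minipig 1. In minipig 3 it was 2.22 at C7, 2.77 at C1, 2.40 at 0d and 3.44 at 1d. Averaged over all libraries of a phase, the ratio went from 3.51 pre-TBI to 4.77 at Mid (exact permutation p = 0.278) and 4.41 at Late (p = 0.778).

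The ratio of ssc-miR-451 to ssc-miR-23a is used in the field as an index of haemolysis, because miR-23a is scarce in red cells. ssc-miR-23a itself stayed between 518 and 1188 CPM, with a log2 change between -0.18 and 0.14 over the 4 phases. The log2 ratio averaged 1.12 pre-TBI, 1.29 at Early, -0.74 at Mid (exact permutation p = 0.167), -0.86 at Late (p = 0.444) and 0.88 at LR (p = 1.0), and the adjusted p was at least 0.5 in each. The highest value was 3.76 in the 0d library of minipig 3, followed by 3.43 in the C7 library of minipig 2, and the lowest was -1.42 in the 17d library of minipig 2. The libraries highest in ssc-miR-451 were high in this ratio by construction, and the part of red-cell lysis at collection was not tested.

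**Figure D4:**
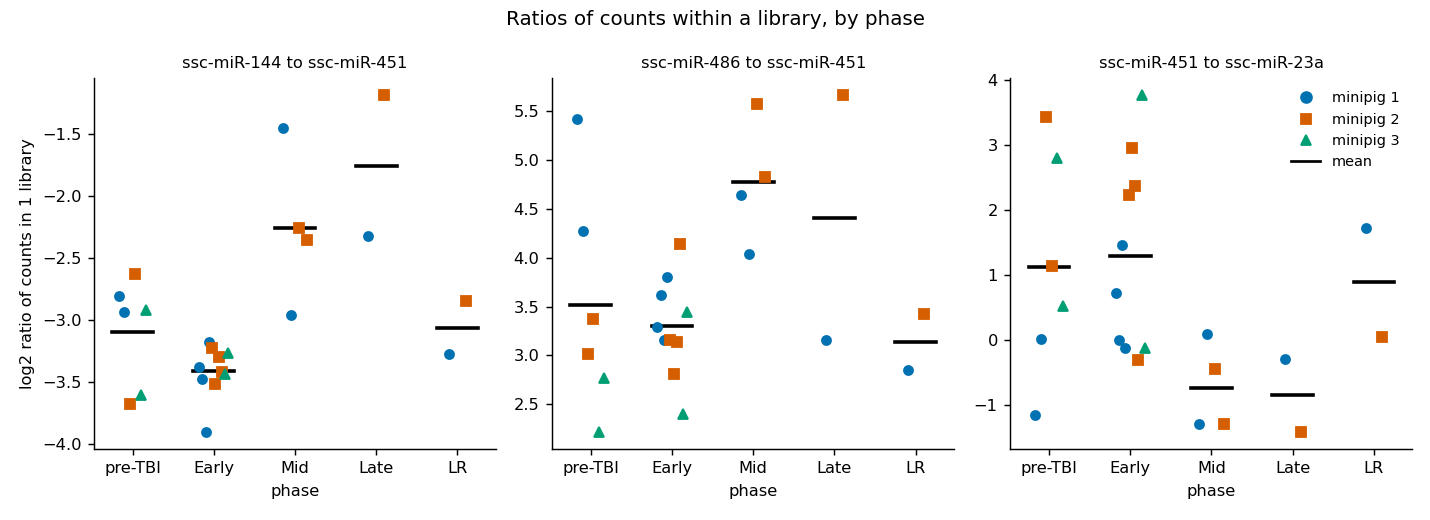
Log2 ratios of counts within a library by phase, with 1 point per library, shape and colour for minipig and a black line at the phase mean. The ssc-miR-144 to ssc-miR-451 ratio is highest in the 17d library of minipig 2, at -1.18, and the ssc-miR-451 to ssc-miR-23a ratio is above 2 in pre-TBI and Early libraries of minipigs 2 and 3 only.

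Summed, the 3 miRNAs had their lowest shares of the counts at Late, and most of this sum was ssc-miR-486. They made up 1.02% to 9.02% of counts in the 6 pre-TBI libraries (median 2.16%), 0.827% to 7.06% in the 10 Early libraries (median 2.56%), and 1.90%, 0.909%, 2.93% and 1.25% in the 4 Mid libraries. At Late they made up 0.604% in minipig 1 (95% Wilson interval 0.521% to 0.699%) and 1.02% in minipig 2 (0.948% to 1.10%), and at LR 1.67% and 1.31%. These intervals cover counting error only, since reads were amplified by PCR and not counted by molecular identifiers. The Late library had the lowest sum of its animal in both minipigs. There ssc-miR-486 gave 156 of 176 reads in minipig 1 and 632 of 649 in minipig 2. Taken singly in minipig 1, ssc-miR-451 was at 0.058% at Late, above 0.034% at 10d and 0.041% at C7. There ssc-miR-144 was at 0.0103% at Late, above 0.0041% at C7. In minipig 2 the Late share of ssc-miR-451, 0.0189%, was its lowest. The difference in mean logit share of the sum from pre-TBI was -1.67 (two-sided exact permutation p = 0.111, the smallest the design allows, adjusted p = 0.444 over 4 phases).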

How the data were processed

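Small RNA libraries were prepared from 5 µL of plasma with the TruSeq small RNA kit. The deposited values are counts of reads per miRNA, whole numbers that the authors made with bcl2fastq, Cutadapt and Bowtie (given as version 2.2.3.0 in the submitters' processing notes), a pig genome named ssc5 and miRBase through miRDeep2. Reads mapping to more than 1 miRNA copy could be shared between rows. Libraries under 1000 counts were left out.

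Counts were tested with edgeR 4.0.16 (R 4.3.3), quasi-likelihood, TMM scaling and a filter that kept rows over 0.5 CPM in 3 or more libraries, passed by all 411 rows. Benjamini-Hochberg adjustment was over 411 rows, and an SE was obtained from a log2 change and its F statistic, as their ratio after taking the root of F. Log2 CPM used a prior count of 2. Ratios and shares were tested with exact permutation tests in Python 3.11.15, with scipy 1.17.1. The fit was tested on simulated data. Alternatives were other scaling and filters, DESeq2 1.42.0, a minipig block, 1 baseline draw, thinning and leaving out each minipig.

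The labels give 1 animal number to all draws of a minipig, so the libraries are paired by animal. Residual log2 CPM correlated at 0.169 on average between phases of the same animal and at -0.102 between animals. No 2 of the 24 libraries were alike within sampling noise. The p-values treat repeated draws as separate samples and so cover the spread between draws of 3 animals.

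By the rule, miRNAs given values were the 3 members, the 5 rows most correlated with each, the most abundant row of each marker list, the most abundant row of the table and ssc-miR-23a. Outside this rule, values were also given for ssc-miR-15b, ssc-miR-126-3p, ssc-miR-126-5p, ssc-miR-1 and ssc-miR-133a-3p. Members and lists were chosen with earlier results of these data known. A rule on rows sharing a seed could not be applied to all 411 rows, since mature sequences were not used here. The C7 library of minipig 1 and the 17d library of minipig 2 were left out in alternatives added after seeing the data, as was the block with thinned counts.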

Additional observations from a re-analysis of the deposited data

Results flagged for a closer look

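Over 21 groups tested (7 measures in the pre-TBI, Early and Mid libraries), 2 single libraries stood apart from their group by Dixon's test, where chance flags about 1 group in 20. The log2 ratio of ssc-miR-144 to ssc-miR-451 was -3.90 in the 3d library of minipig 1, the lowest of the 10 Early libraries, and the next was -3.52 (gap over range 0.533, critical value 0.466). That library held 56 reads of ssc-miR-144 and 845 of ssc-miR-451. The 3 miRNAs made up 9.02% of counts in the C7 library of minipig 2, the highest of the 6 pre-TBI libraries, and the next was 3.54% (gap over range 0.684, critical value 0.625). This is an unirradiated draw, and it entered every comparison with the pre-TBI group. Dixon's test took the share as a percent, not on the logit scale of the permutation tests, and the flag was not checked on that scale.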

How the results depend on the processing

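No phase result crossed the adjusted threshold of 0.05 under any alternative, and neither did any ratio or share. With labels moved within each minipig, the exact tests of ratios and shares could not cross it after Early. The smallest p they allow was 0.0556 at Mid and 0.111 at Late and LR. For ssc-miR-451 the Mid change ran from -3.35 to -1.14 and the Late change from -4.53 to -1.46, always negative. Most of these fits had no term for the animal, so the constant sign is not a direction shared by the animals. In minipig 1 the change from its own pre-TBI mean was 0.11 at Mid and 0.37 at Late. The 1 call that changed was ssc-miR-451 at 17d, -2.82 under DESeq2's Wald test, adjusted p = 0.0466. With the replicate block the ssc-miR-451 change was -1.92 at Mid and -2.21 at Late, and the block changed no call at the adjusted threshold. Of 288 alternative values of phases, ratios and shares, 254 kept their direction and 34 reversed. ssc-miR-144 did not reach 10 counts in every library and has no value under that filter. Reversals were in changes that passed no test, and where not shown by the construction (a baseline or animal left out), the cause was not tested. With library size only, the change was -0.045 for ssc-miR-451 and -0.12 for ssc-miR-144 at Early, and -0.10 for ssc-miR-486 at 0d. Without the most abundant row in the library sizes these were -0.0032, -0.078 and -0.0072, and ssc-miR-451 at 1d was 0.018. Without the 3 miRNAs in the library sizes they were -0.061, -0.13 and -0.13. With C7 only as the baseline, Early was -0.57 for ssc-miR-451 and -0.49 for ssc-miR-144, 0d was -0.11 for ssc-miR-451 and -0.42 for ssc-miR-486, 3d was -0.13, -0.017 and -0.12 for ssc-miR-451, ssc-miR-486 and ssc-miR-144, and the Early ratio of ssc-miR-451 to ssc-miR-23a was -0.39. With C1 only, ssc-miR-486 was 0.90 at Early, 0.14 at Mid and 0.34 at 10d, ssc-miR-451 was 0.36 at LR and 0.36 at 20d, 1d was 1.18, 0.68 and 0.46 for ssc-miR-451, ssc-miR-486 and ssc-miR-144, the LR ratios of ssc-miR-144 to ssc-miR-451 and of ssc-miR-451 to ssc-miR-23a were -0.24 and 0.32, and the logit share was 0.67 at Early and 0.075 at Mid. With thinned counts, ssc-miR-451 was -0.10 at Early and ssc-miR-144 0.046 at 1d. Added after seeing the data, the replicate block with thinned counts gave 0.12 for ssc-miR-144 at LR, and leaving out the C7 library of minipig 1 gave -0.20 for ssc-miR-451 and -0.21 for ssc-miR-144 at Early. Without the 17d library of minipig 2 the Late change of ssc-miR-451 was -1.94 (edgeR, unadjusted p = 0.249). An offset of 2 counts gave -0.11 for the LR ratio of ssc-miR-144 to ssc-miR-451, and the Early share without the most abundant row was 0.0097.

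Leaving out each minipig in turn, which leaves the Mid, Late and LR groups with 1 animal without minipig 1 or 2, gave these ranges. ssc-miR-451 ran from -0.11 to 0.44 at Early, -2.31 to 0.23 at LR, -0.57 to 1.31 at 0d, -1.22 to 0.39 at 1d and -2.31 to 0.23 at 20d. ssc-miR-486 ran from -0.34 to 0.20 at Early, -0.77 to 0.68 at 0d and -1.61 to 0.0079 at 14d. ssc-miR-144 ran from -0.27 to 0.17 at Early, -1.71 to 0.16 at LR, -0.54 to 1.12 at 0d, -1.39 to 0.15 at 1d and -1.71 to 0.17 at 20d. The ratio of ssc-miR-144 to ssc-miR-451 ran from -0.21 to 0.36 at LR, that of ssc-miR-486 to ssc-miR-451 from -0.63 to 0.34 at Early, -0.51 to 2.82 at Late and -0.89 to 0.58 at LR, that of ssc-miR-451 to ssc-miR-23a from -0.16 to 0.41 at Early and -1.93 to 1.18 at LR, and the Early share from -0.16 to 0.092.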
